A study of Mus musculus with 8 samples.

Results

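The genes described here encode 31 enzymes and carriers of the mitochondrial matrix and inner membrane, 15 of the pyruvate dehydrogenase complex and tricarboxylic acid (TCA) cycle and 16 of fatty acid beta oxidation. They were listed by name, and all 31 were found among the 18193 genes that had a probe set with a single annotated symbol on the array. The cells were C2C12, an established mouse myoblast line that fuses into myotubes when serum is reduced. The DOR siRNA group held 4 cultures given a lentivirus that encodes siRNA to DOR, which Trp53inp2 encodes, and the scrambled group held 4 cultures transduced with a lentivirus encoding scrambled RNA. Both groups therefore carried a lentivirus and were sorted on GFP to 93 to 99% positive cells after transduction at an moi of 100 and 5 to 7 days of growth, per the labels' protocols. Cells were then held for 4 days in medium with 5% horse serum, although other labels name them confluent myoblasts. All cultures come from 1 cell line, and the labels call them biological replicates without stating how each was derived, so the p-values measure the spread between these cultures. The series title places DOR among candidate genes for type 2 diabetes that link mitochondria with insulin signalling, and the comparison asks here whether transcripts of these enzymes differ when DOR is reduced.

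Pyruvate and fatty acids are both converted to acetyl-CoA in the mitochondrial matrix. The TCA cycle oxidises the acetyl group and passes its electrons to the respiratory chain as NADH and FADH2. Fatty acids enter the matrix as carnitine esters and are shortened by repeated rounds of dehydrogenation, hydration, a second dehydrogenation and thiolysis, and the acyl-CoA dehydrogenases hand their electrons to the electron transfer flavoprotein. Muscle is known for a high content of both pathways, which increases as myoblasts become myotubes. DOR is known to assist nuclear receptors such as the thyroid hormone receptor, and it takes part in forming autophagosomes.

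The knockdown and the cell identity were checked on the same arrays. Trp53inp2 has 2 probe sets, of which the brighter averaged 9.51 ± 0.31 log2 units in DOR siRNA cultures and 11.35 ± 0.29 in scrambled cultures (SD, n = 4 each), a difference of -1.83 ± 0.17 (limma adjusted p = 0.00087), while the dimmer probe set differed by 0.14 ± 0.084 (limma adjusted p = 0.52). The myogenic markers Myod1, Myf5, Des, Myog and Mef2c each exceeded the median level of the array (6.18) in both groups, Mef2c was lower with a difference of -1.53 ± 0.16 (limma adjusted p = 0.0014), Myf5 passed as higher with the replicate block alone (0.45 ± 0.13, limma adjusted p = 0.080, and 0.044 with the block), and 4 of 5 measured adipocyte markers lay below it. Of 15 myotube markers 8 were lower and none higher in the DOR siRNA cultures (Myh1, Myh4, Myh8, Tnnc2, Tnnt3, Tnni2, Actn2 and Neb), and their mean level ran from 10.83 to 11.58 in DOR siRNA arrays against 11.94 to 12.53 in scrambled arrays. With the replicate number as a block 12 of the 15 were lower, with Ckm, Ttn, Cav3 and Casq1 added. Of 9 cycling markers 8 were higher (Ccnd1, Mki67, Top2a, Tk1, Aurkb, Birc5, Cdk1 and Ccna2), with mean levels of 9.09 to 9.25 in DOR siRNA arrays and 8.38 to 8.62 in scrambled arrays, and all 9 were higher with the block. Of 6 fibroblast markers 1, Pdgfra, was higher, while all 6 differences were positive and 5 had an unadjusted p under 0.05. With the block 3 of the 6 were higher (Pdgfra, Dcn and Lum). The mean level of all 6 ran from 9.70 to 10.17 in DOR siRNA arrays and from 9.39 to 9.61 in scrambled arrays. Of 5 macrophage markers 1, Cd14, was higher, in both fits. By mean level over the 8 arrays 3 of the 5 lay above the median and 2, Ptprc among them, below it. Ptprc, which marks all leukocytes, averaged 3.18 in DOR siRNA cultures and 3.08 in scrambled cultures. Retn and Lep, the adipocyte markers with the smallest p, differed by 0.13 ± 0.080 and 0.063 ± 0.091. The part of any of these markers in the results below was not tested. The beta-actin control read 0.28 to 0.50 log2 units more at its 3′ end than at its 5′ end in DOR siRNA arrays and 0.31 to 0.40 in scrambled arrays.

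None of the 31 genes passed the test in either direction by its brightest probe set. Over all genes 829 passed (limma adjusted p under 0.05), which is 4.56% of those tested. At an unadjusted p under 0.05 the count was also 0 of 31, beside 18.0% of all genes. The value of a gene is that of its brightest single-symbol probe set. For all 31 this one lay above the median of all probe sets, and the mean levels ran from 9.24 to 13.25 log2 units. The differences were small in both pathways, from -0.27 (Dld) to 0.20 (Decr1), and 28 of 31 were under 0.2 in size. In the TCA cycle 11 of 15 differences were negative with a median of -0.067, in beta oxidation 10 of 16 were positive with a median of 0.043, and the median over all genes was 0.015. Whether the 2 pathways differ from each other was not tested. The widest bounds among the 95% intervals were -0.57 (Acaa2) and 0.43 (Decr1) on the log2 scale, which correspond to 0.675 and 1.35 times the scrambled level. All 31 intervals therefore lay inside a 1.5-fold change in either direction, against 88.4% of intervals over all genes. Values are from whole cultures, in which a smaller share of cells of a kind and less RNA per cell cannot be told apart. The ± beside a difference is the standard error that limma estimated.

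**Figure D1:**
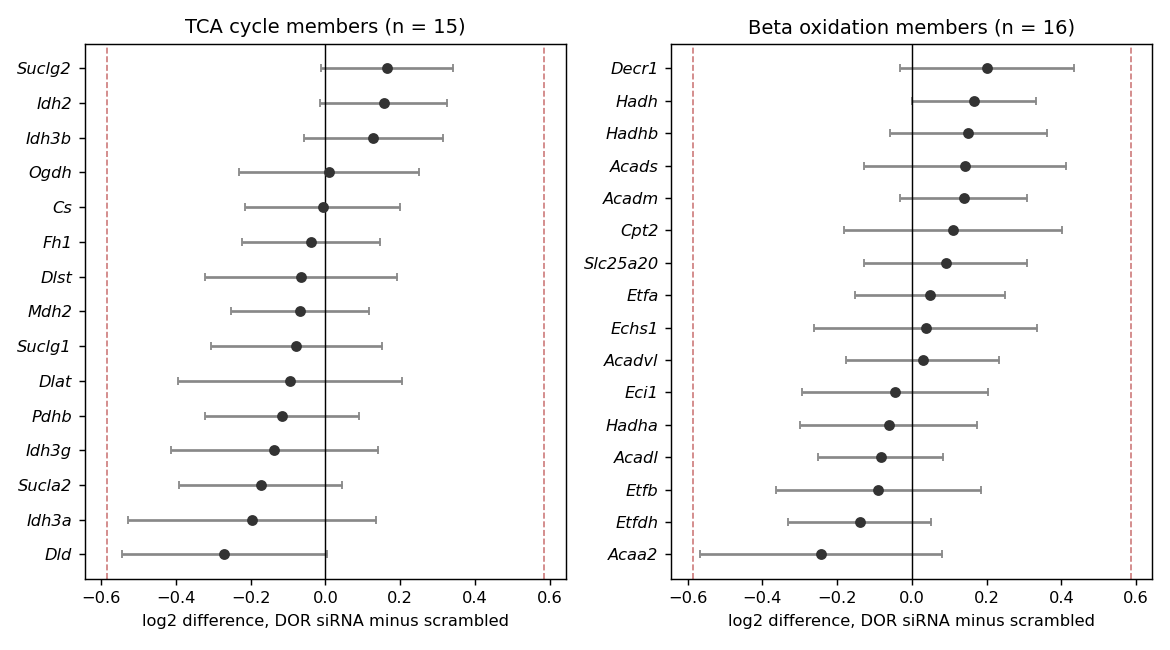
Differences (log2, DOR siRNA minus scrambled) of the 15 TCA cycle and 16 beta oxidation genes, each by its brightest probe set and ordered by size. Points are estimates, bars are 95% intervals from limma on 4 against 4 arrays, and dashed lines mark a 1.5-fold change. All intervals lie between -0.57 and 0.43.

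The pyruvate dehydrogenase complex, which turns pyruvate into acetyl-CoA, is represented by Pdhb, Dlat and Dld. Pdhb, the beta subunit of the decarboxylating component, differed by -0.12 ± 0.094. Dlat, the acetyltransferase core, differed by -0.095 ± 0.14. Dld, the dihydrolipoamide dehydrogenase that the pyruvate and oxoglutarate complexes share, read 11.00, 10.84, 10.74 and 10.64 in DOR siRNA cultures 1 to 4 and 11.26, 11.28, 10.99 and 10.76 in scrambled cultures 1 to 4. It was lower in each of the 4 same-numbered pairs, but the groups overlapped, since scrambled 4 lay under DOR siRNA 1 and 2 and scrambled 3 under DOR siRNA 1. The difference of Dld, -0.27 ± 0.12 (limma adjusted p = 0.33), was the largest among the TCA cycle genes, and its 95% interval ran from -0.54 to 0.0042. Blocking on the replicate number gave Dld a limma adjusted p of 0.088.

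Citrate synthase (Cs), which opens the cycle, gave nearly equal means of 12.15 ± 0.089 in DOR siRNA cultures and 12.15 ± 0.16 in scrambled cultures (SD, n = 4 each). Its 95% interval reached from -0.21 to 0.20. The oxoglutarate dehydrogenase complex also gave values near 0, with 0.0087 ± 0.11 for Ogdh, its decarboxylating component, and -0.065 ± 0.12 for Dlst, its succinyltransferase. Fumarase (Fh1) differed by -0.038 ± 0.084 and mitochondrial malate dehydrogenase (Mdh2), which closes the cycle, by -0.067 ± 0.084.

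The isocitrate dehydrogenases are of different kinds. Idh2 is the mitochondrial enzyme that uses NADP, whereas Idh3a, Idh3b and Idh3g encode the subunits of the NAD-dependent enzyme of the cycle. Idh2 read 10.16, 10.32, 10.27 and 10.23 in DOR siRNA cultures and 9.99, 10.22, 10.09 and 10.07 in scrambled cultures. All 4 pairs were higher in the knockdown, scrambled 2 lay within the DOR siRNA values, and the difference was 0.16 ± 0.077 (limma adjusted p = 0.38). The catalytic subunit gene Idh3a differed by -0.20 ± 0.15 and the regulatory subunit gene Idh3g by -0.14 ± 0.13. The lowest value of Idh3a, 10.88, was that of DOR siRNA 2, where the other DOR siRNA arrays read between 11.14 and 11.52.

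Idh3b was the only gene of the 31 with a probe set that passed the test, and it was not the brightest one. The second of its 3 probe sets, with the suffix _a_at, read 10.34, 10.40, 10.42 and 10.42 in DOR siRNA cultures and 9.91, 10.01, 9.99 and 10.08 in scrambled cultures. The groups did not overlap, and the rise was 0.40 ± 0.070, or 1.32-fold (limma adjusted p = 0.014). The brightest probe set, with the suffix _s_at, read 11.36, 11.34, 11.36 and 11.34 in DOR siRNA cultures and 11.31, 11.38, 11.10 and 11.09 in scrambled cultures. There scrambled 2 lay above all 4 DOR siRNA arrays, and the difference was 0.13 ± 0.084 (limma adjusted p = 0.55). The dimmest of the 3, which fell below the median level of the array, had means of 4.70 and 4.59 log2 units in DOR siRNA and scrambled cultures and differed by 0.11 ± 0.082. The array annotation ties both bright probe sets to the same RefSeq transcript of Idh3b, so they gave unequal changes for 1 annotated transcript. On each array the value of the _a_at probe set minus that of the _s_at probe set averaged -0.96 ± 0.044 in DOR siRNA cultures and -1.22 ± 0.19 in scrambled cultures (SD, n = 4 each). The groups overlapped in this gap, at -1.02 in DOR siRNA 1 and -1.01 in scrambled 4. The call of the _a_at probe set ended without scrambled 1 (0.37, limma adjusted p = 0.051), and in the mean over the 3 probe sets Idh3b did not pass (limma adjusted p = 0.065).

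**Figure D2:**
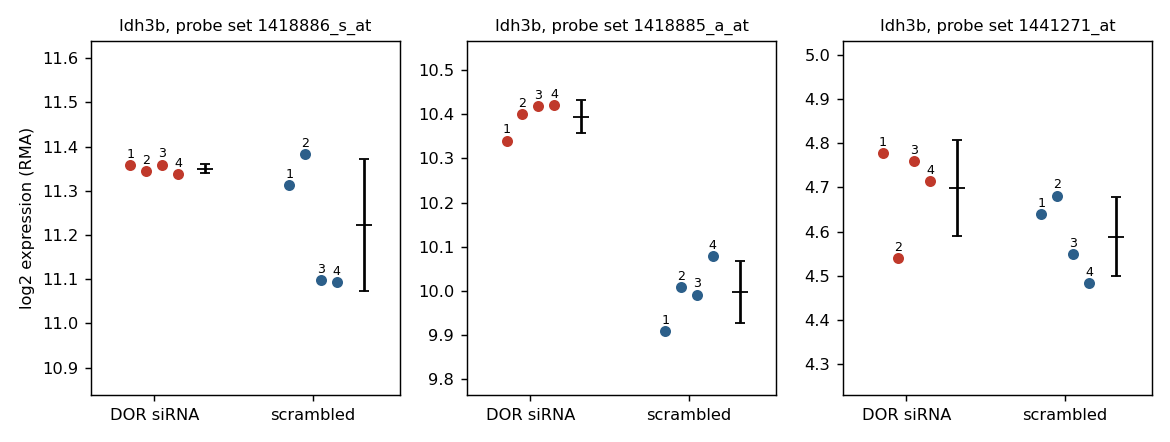
Expression (log2, RMA) of the 3 probe sets of Idh3b in DOR siRNA (red) and scrambled (blue) cultures, from the brightest (left) to the dimmest, with the culture number above each point. Black bars are mean ± SD (n = 4) and each vertical axis spans the same range in log2 units. The groups separate fully in the middle panel, that of the _a_at probe set.

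Succinyl-CoA ligase makes the nucleotide triphosphate of the cycle, with the shared alpha subunit Suclg1 and a beta subunit that is either Sucla2, for ATP, or Suclg2, for GTP. Suclg1 differed by -0.078 ± 0.10. Suclg2 read 9.40, 9.47, 9.30 and 9.28 in DOR siRNA cultures and 9.15, 9.32, 9.22 and 9.09 in scrambled cultures. It was higher in all 4 pairs, with scrambled 2 above 2 of the DOR siRNA arrays (difference 0.16 ± 0.080, limma adjusted p = 0.37). Sucla2 read 12.06, 12.02, 12.05 and 11.83 in DOR siRNA cultures and 12.27, 12.29, 12.18 and 11.91 in scrambled cultures. It was lower in all 4 pairs, and scrambled 4 lay under 3 of the DOR siRNA arrays (difference -0.17 ± 0.099, limma adjusted p = 0.47). By their brightest probe sets the beta subunit genes thus had estimates of opposite sign, neither past the threshold. The difference between the 2 genes was not tested. The other probe sets of Sucla2, both below the array's median level, differed by -0.019 ± 0.077 and 0.21 ± 0.11 (limma adjusted p = 0.96 and 0.38). That of Suclg2 differed by 0.15 ± 0.088 (limma adjusted p = 0.48).

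Entry of fatty acids into the matrix depends on Slc25a20, the carnitine and acylcarnitine carrier, and on Cpt2, which re-forms acyl-CoA at the inner membrane. Slc25a20 differed by 0.091 ± 0.099 and Cpt2 by 0.11 ± 0.13. The acyl-CoA dehydrogenases take chains of decreasing length in the order Acadvl, Acadl, Acadm and Acads, and their differences were 0.029 ± 0.093, -0.084 ± 0.076, 0.14 ± 0.077 and 0.14 ± 0.12. Acadm had the smallest p of these. It read 11.49, 11.35, 11.43 and 11.42 in DOR siRNA cultures and 11.36, 11.38, 11.17 and 11.22 in scrambled cultures, so that DOR siRNA 2 fell among the scrambled values (limma adjusted p = 0.45).

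Electrons from these dehydrogenases pass through the electron transfer flavoprotein, Etfa and Etfb, to its ubiquinone oxidoreductase, Etfdh. Etfa differed by 0.048 ± 0.091, Etfb by -0.090 ± 0.12 and Etfdh by -0.14 ± 0.087, with 95% intervals that reached no further than -0.36 and 0.25. These genes are of interest for their promoters as well. RefSeq windows from 250 bases before to 50 bases after the gene start (build GRCm38.p6) were found for 28 of the 31 genes, 14 in each pathway. They were searched on both strands for short sites of nuclear factors known for control of mitochondrial genes. The core of the nuclear respiratory factor site, GCATGCGC, was in windows of 4 of 28 genes (14.3%) and of 824 of 27025 genes in the whole table (3.05%). The 4 were Etfa, Etfdh, Acadm and Ogdh. A gene counted if any of its windows held the site. The whole table was not limited to genes of the array or to genes expressed at similar levels, and the shares were not tested. The site of estrogen-related receptors, TNAAGGTCA, was in 0 of 28 and in 1.43% of all genes. Direct repeats of AGGTCA with 4 bases between (thyroid hormone receptor) or 1 base between (PPAR) were in 0 of 28 genes as well. Among all genes in the whole table the shares were 0.0148% and 0.0481%. A match is a run of letters and not a shown binding site, and a gene without a match has only been searched within this window. The sites are shown with 40 bases on either side, because 3 of the 4 lie at genes of the acyl-CoA dehydrogenase and flavoprotein step. They are given 5′ to 3′ on the gene's strand, with the core or its reverse complement in capitals, and in Etfdh the matches on the 2 strands overlap.
Etfa, chr9:55512301-55512388, minus strand: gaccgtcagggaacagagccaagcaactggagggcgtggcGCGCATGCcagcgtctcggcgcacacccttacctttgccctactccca
Etfdh, chr3:79628846-79628935, minus strand: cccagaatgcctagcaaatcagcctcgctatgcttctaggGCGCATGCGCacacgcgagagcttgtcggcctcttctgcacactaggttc
Acadm, chr3:153944754-153944841, minus strand: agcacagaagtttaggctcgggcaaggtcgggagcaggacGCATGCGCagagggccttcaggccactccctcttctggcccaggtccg
Ogdh, chr11:6292503-6292590, plus strand: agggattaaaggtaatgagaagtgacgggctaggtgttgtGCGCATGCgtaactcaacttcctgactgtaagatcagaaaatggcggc

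None of these 4 genes passed the test, as given above. Nrf1, which encodes nuclear respiratory factor 1, averaged 7.28 ± 0.10 in DOR siRNA cultures and 7.41 ± 0.084 in scrambled cultures (SD, n = 4 each; difference -0.13 ± 0.080, limma adjusted p = 0.50).

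The later steps of the spiral are carried by the trifunctional protein, Hadha and Hadhb, for long chains and by Echs1, Hadh and Acaa2 for shorter ones. Hadha differed by -0.062 ± 0.11, Hadhb by 0.15 ± 0.096 and the hydratase Echs1 by 0.037 ± 0.14. Hadh, the hydroxyacyl-CoA dehydrogenase, read 11.63, 11.60, 11.53 and 11.54 in DOR siRNA cultures and 11.41, 11.49, 11.27 and 11.46 in scrambled cultures. By brightest probe sets, Hadh was the only gene of the 31 whose groups did not overlap. Over all genes 12.2% showed such a separation and 8.10% were separated upwards. The difference of Hadh was 0.17 ± 0.075 (limma adjusted p = 0.33). In its other probe sets the groups overlapped, with differences of 0.17 ± 0.081 and 0.11 ± 0.076 (limma adjusted p = 0.37 and 0.60). Acaa2, the thiolase, read 10.79, 10.69, 10.66 and 10.39 in DOR siRNA cultures and 10.98, 11.27, 10.66 and 10.59 in scrambled cultures. It was lower in all 4 pairs by its brightest probe set, with overlap of the groups (difference -0.24 ± 0.15, limma adjusted p = 0.50). Its other probe sets gave differences of -0.26 ± 0.13 and -0.40 ± 0.16 and did not pass either (limma adjusted p = 0.38 and 0.25).

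Unsaturated fatty acids need auxiliary enzymes, the isomerase Eci1 and the dienoyl-CoA reductase Decr1. Eci1 differed by -0.044 ± 0.11. Decr1 read 9.55, 9.53, 9.32 and 9.26 in DOR siRNA cultures and 9.17, 9.45, 9.04 and 9.19 in scrambled cultures. All 4 pairs were higher in the knockdown, and scrambled 2 lay above 2 of the DOR siRNA arrays. The difference, 0.20 ± 0.11 (limma adjusted p = 0.41), was the largest increase among the 31 genes, and it was -0.0087 ± 0.092 by the dimmer probe set of Decr1.

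**Figure D3:**
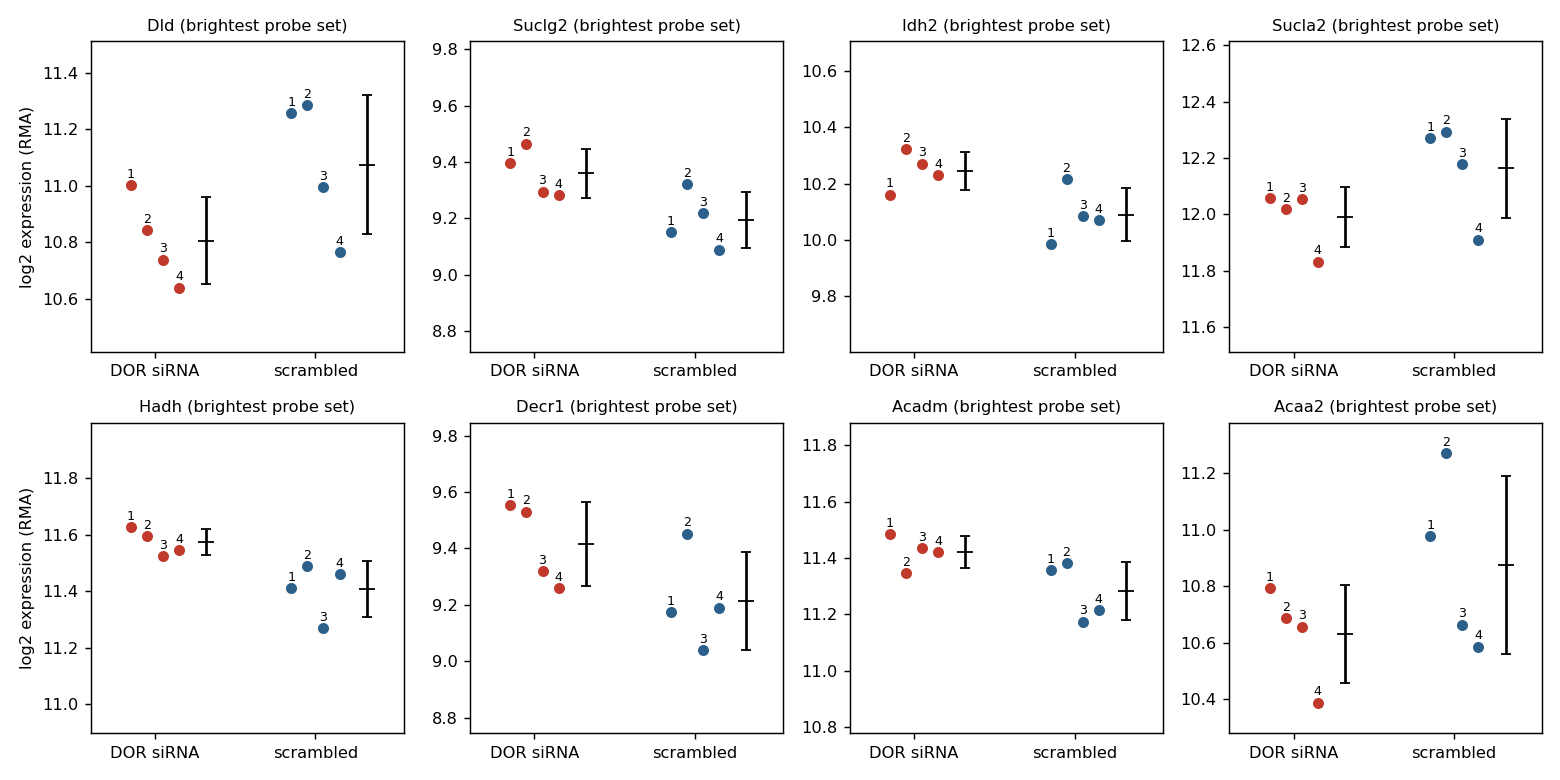
Expression (log2, RMA) of the 4 TCA cycle genes (top row) and 4 beta oxidation genes (bottom row) with the smallest p, in DOR siRNA (red) and scrambled (blue) cultures, with the culture number above each point. Black bars are mean ± SD (n = 4) and each vertical axis spans the same range in log2 units. The groups overlap in each panel but that of Hadh, and none passed the test.

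Several genes were measured more than once. Of the 31 genes 21 had several probe sets, which gave 32 probe sets beside the brightest ones. Of these 32, 1 passed, that of Idh3b described above, where 3.22% of all probe sets passed and 2.04% passed as higher. At an unadjusted p under 0.05 the only others were 1 lower, the third of Acaa2. Of the 63 probe sets in all, 61 had 95% intervals inside a 1.5-fold change, and 9 lay below the array's median level, where a log2 difference is compressed.

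Array medians of the TCA cycle genes spread more within each group than the group medians differed. For 13 of 15 TCA cycle genes scrambled 2 gave the highest of the 8 values, an array that was highest for 17.5% of all genes. DOR siRNA 4 was lowest for 7 and scrambled 4 for 6 of the 15, beside 13.0% and 15.2% of all genes. Set against the scrambled mean of each gene, the median deviation of the TCA cycle genes was 0.050, -0.039, -0.066 and -0.21 in DOR siRNA cultures 1 to 4 and 0.065, 0.16, -0.055 and -0.23 in scrambled cultures 1 to 4. The DOR siRNA medians all lay within the range of the scrambled medians, and culture 4 was the lowest in each group. The beta oxidation genes gave 0.13, 0.073, -0.0066 and -0.099 in DOR siRNA cultures and 0.044, 0.20, -0.11 and -0.12 in scrambled cultures. Here scrambled 2 was highest again, and scrambled 3 and 4 were the lowest. The 15 myotube markers, set against their own scrambled means, gave -0.61, -0.77, -0.80 and -1.12 in DOR siRNA cultures and 0.087, 0.25, -0.052 and -0.20 in scrambled cultures. Within each group the cultures fell in the same order for the myotube markers, the TCA cycle genes and the beta oxidation genes. Between the groups the medians of the markers did not overlap, while those of both pathways did. What sets this order was not tested.

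**Figure D4:**
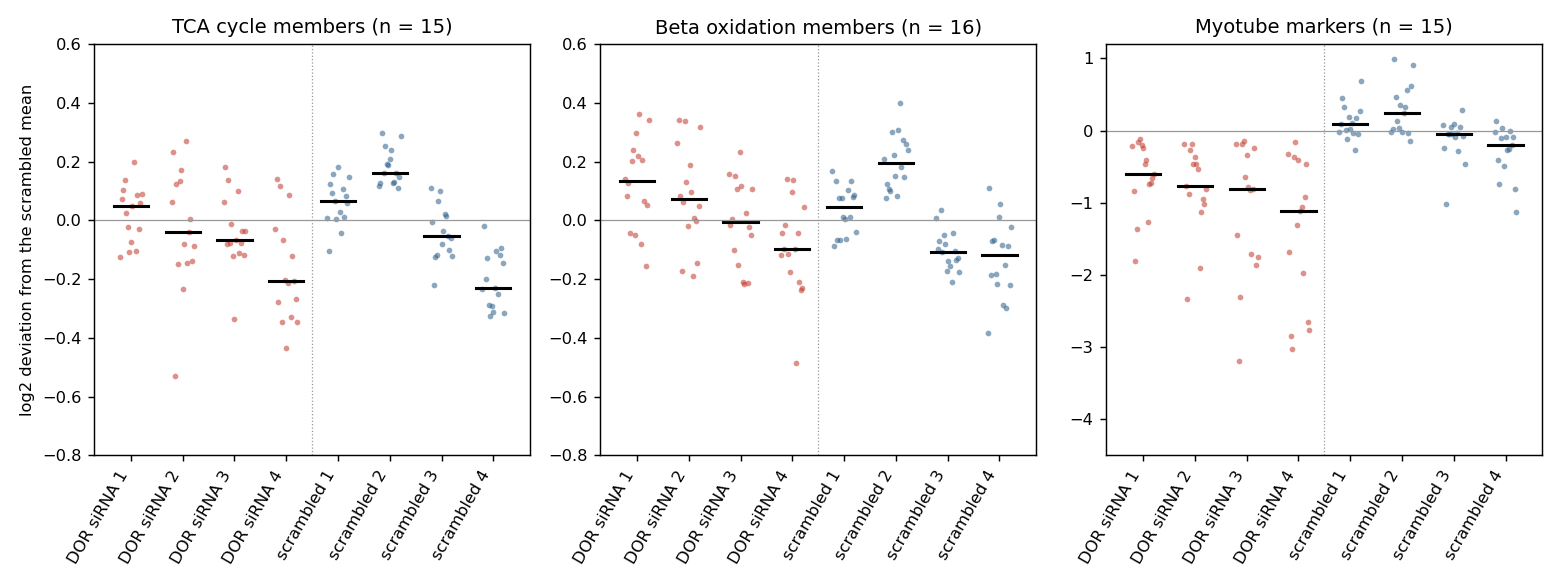
Deviation of each gene from its mean over the 4 scrambled arrays (log2) on every array, for 15 TCA cycle genes, 16 beta oxidation genes and 15 myotube markers, with DOR siRNA in red and scrambled in blue. Black lines are medians, and the vertical axis of the third panel is wider. Medians of the TCA cycle genes run from -0.21 to 0.050 in DOR siRNA arrays and from -0.23 to 0.16 in scrambled arrays.

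Pairing left the genes uncalled. With group means removed, same-numbered arrays correlated at 0.142 to 0.468 and arrays of different numbers at -0.394 to 0.265, so the pairing is uncertain. With the number as a block 8.25% of all genes passed but 0 of the 31. At an unadjusted p under 0.05 that fit gave 4 of 31, Dld, Sucla2 and Acaa2 lower and Decr1 higher, beside 21.9% of all genes. In pair 2, 13 of 15 TCA cycle genes and 11 of 16 beta oxidation genes were lower in the knockdown, with median differences of -0.20 and -0.13. In pair 4 the medians were -0.0036 and 0.069, and the TCA cycle genes divided into 8 lower and 7 higher.

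Some genes related to these pathways passed the test. Of 14 other measured genes around the TCA cycle 1 rose, of 16 other genes of beta oxidation and its control 2 rose, and of 12 genes of peroxisomal oxidation 1 rose, while none fell. Over all genes 3.11% rose and 1.45% fell. Succinate dehydrogenase subunits Sdha, Sdhb, Sdhc and Sdhd, the part of the cycle that sits in the respiratory chain, were not called, with differences of -0.13 ± 0.089, -0.0079 ± 0.11, 0.086 ± 0.077 and 0.068 ± 0.10.

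Cpt1a, the outer membrane enzyme that makes acylcarnitines, read 9.23, 9.53, 9.34 and 9.39 in DOR siRNA cultures and 8.95, 8.89, 8.85 and 8.74 in scrambled cultures, a rise of 0.52 ± 0.086, or 1.43-fold (limma adjusted p = 0.011). Cpt1c, a related protein known mainly from brain, read 7.38, 7.67, 7.15 and 7.10 in DOR siRNA cultures and 6.69, 6.69, 6.53 and 6.46 in scrambled cultures, a rise of 0.73 ± 0.12 (limma adjusted p = 0.011). For both genes every DOR siRNA array lay above every scrambled array. Cpt1b, a further gene of this family, is not analysed here, so the values do not cover the whole entry step. Cpt2 and Slc25a20, which act after Cpt1a at the inner membrane, did not pass, as given above, and the difference between the steps was not tested.

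Idh1, the isocitrate dehydrogenase of cytosol and peroxisomes that uses NADP, read 11.08, 11.09, 11.11 and 11.42 in DOR siRNA cultures and 10.41, 10.26, 10.41 and 10.90 in scrambled cultures. Its rise was 0.68 ± 0.14, or 1.60-fold (limma adjusted p = 0.024), and the groups did not overlap. The call of Idh1 was lost without DOR siRNA 1, 3 or 4 or scrambled 1, 2 or 3, with limma adjusted p up to 0.082. Abcd2, a peroxisomal transporter of fatty acyl-CoA, read 5.58, 5.72, 5.94 and 5.72 in DOR siRNA cultures and 5.21, 5.18, 5.08 and 4.93 in scrambled cultures. It rose by 0.64 ± 0.096 (limma adjusted p = 0.0070) with all 8 values below the array's median level, so the size is not firm. Crot, the peroxisomal carnitine octanoyltransferase, differed by 0.41 ± 0.11 (limma adjusted p = 0.066) and passed with the replicate block (limma adjusted p = 0.042). Over the main fit and the alternatives given below its difference ran from 0.20 to 0.52. Its limma adjusted p ran from 0.0075 to 0.25.

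None of 15 regulators of oxidative metabolism passed, nor did any reach an unadjusted p under 0.05. Ppargc1b, a coactivator of mitochondrial genes, had the smallest p, at 9.39 ± 0.12 in DOR siRNA cultures and 9.59 ± 0.18 in scrambled cultures (SD, n = 4 each; difference -0.20 ± 0.10, limma adjusted p = 0.38). Esrrg, an estrogen-related receptor known for control of oxidative genes in muscle, read 5.90, 6.06, 5.22 and 4.40 in DOR siRNA cultures and 7.01, 7.22, 6.50 and 4.67 in scrambled cultures. It was lower in all 4 pairs while the groups overlapped through scrambled 4. The difference of Esrrg was -0.95 ± 0.51 (limma adjusted p = 0.43). With the replicate block the error was 0.15 and the limma adjusted p 0.0095, where 3.16% of genes were lower, and without scrambled 4 the difference was -1.51 (limma adjusted p = 0.034). The 4 DOR siRNA values of Esrrg and that of scrambled 4 lay below the array's median level, so the size of its difference is not firm.

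**Figure D5:**
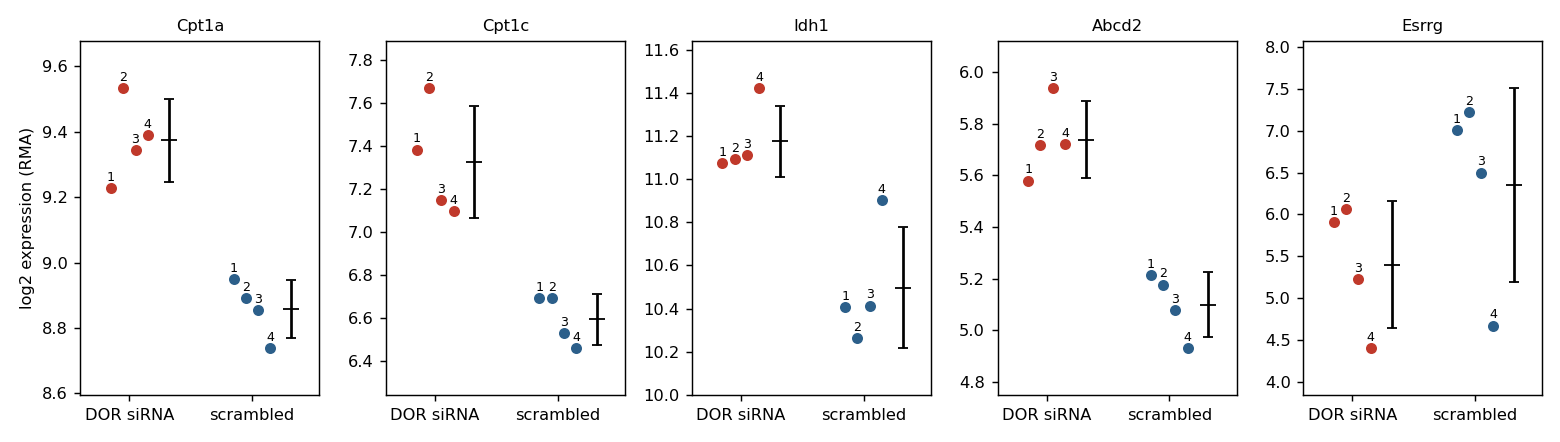
Expression (log2, RMA) of the 4 called genes of the other pathway lists and of Esrrg in DOR siRNA (red) and scrambled (blue) cultures, with the culture number above each point. Black bars are mean ± SD (n = 4), and the vertical axes differ in range. The groups do not overlap for Cpt1a, Cpt1c, Idh1 and Abcd2, and overlap for Esrrg through scrambled 4 at 4.67.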

How the data were processed

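Total RNA (25 ng per culture) was amplified before hybridisation to Affymetrix arrays of 1 colour, as the labels' protocols state. The authors deposited 1 log2 value per probe set and array. The submitters' processing notes name RMA, with no version or options given in the sources used here. RMA makes the arrays' distributions alike, so a shift of all transcripts would not be visible. After 64 control probe sets were left out, 45037 were tested, and array medians lay between 6.14 and 6.20. The number of arrays limits the precision. A single symbol was annotated for 34945 probe sets, several for 932 and none for 9160. Through RefSeq identifiers 34741 matched, and 0 symbols were updated. Of several probe sets of a gene, the one brightest on average over 8 arrays stood for it.

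Groups were compared with limma 3.58.1 (R 4.3.3, lmFit and eBayes, group as the only term), two-sided, with Benjamini-Hochberg adjustment across the 45037 probe sets and calls made at an adjusted p under 0.05. The steps were tested on simulated data. The members, gene lists and tests were chosen with earlier results of these data known. All 31 members are named. Values of every array are given for the 4 genes per pathway with the smallest p, for Idh3b and for called genes of the other pathway lists. Called genes of marker lists are named, and lists without a call give the 2 genes with the smallest p. Nrf1, the Sdh genes, Crot and Ptprc were named outside this rule, after their values were seen. With each group's mean removed, the 2 arrays of a number correlated at 0.142 to 0.468 across probe sets, above 0.1 in each of 4 pairs. Arrays of different numbers correlated at -0.394 to 0.265, a range that overlaps the first. Arrays sharing a number were treated as a pair on this basis, although the labels do not state that they were made together. Some genes of the other lists are not analysed here. Promoter windows are from RefSeq (GRCm38.p6). Figures were drawn with matplotlib 3.10.9.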

Additional observations from a re-analysis of the deposited data

How the results depend on the processing

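The 14 alternatives were the replicate block, leaving out each of 8 arrays, a variance trend with a robust prior, cyclic loess, leaving out dim probe sets, a poly-A spike covariate and averaging all probe sets per gene. Under each of them 0 of the 31 genes passed, and the smallest limma adjusted p was 0.065 (Idh3b, mean over probe sets). At an unadjusted p under 0.05 the alternatives gave 0 to 4 of the 31. The sign was kept in all 14 by 18 of the 31 genes. Intervals of at least 28 of the 31 stayed inside a 1.5-fold change. The median of the TCA cycle genes ran from -0.15 (without scrambled 4) to 0.00089 (without scrambled 2) and that of beta oxidation from -0.0097 (without scrambled 4) to 0.11 (without scrambled 2). Over all probe sets 2827 passed with the replicate block and 608 to 2310 with 1 array left out, against 1452. The called Idh3b probe set was 0 to 1 in count when arrays were left out and 0 in the mean over probe sets. Of the other pathway genes 1 (Esrrg) was lower with the replicate block, and 0 to 1 with 1 array left out, while 3 to 5 were higher. The difference of Trp53inp2 was -0.85 in the mean over its probe sets and kept its call. Among the other pathway genes the replicate block changed the calls of Crot and Esrrg only, and among the markers it added those of Myf5, Ckm, Ttn, Cav3, Casq1, Mcm5, Dcn and Lum. Abcd2 and Esrrg are limited by low signal, where log2 differences are compressed.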

Other observations

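The spread within groups was smaller in the DOR siRNA cultures for most of these genes by their brightest probe sets. The SD over 4 arrays was smaller in DOR siRNA than in scrambled cultures for 26 of the 31 genes (83.9%) and for 52.9% of all genes. Among the other 32 probe sets of these genes it was smaller for 18 (56.25%), and among all 63 for 44 (69.8%). The genes share the same arrays and are not independent, as scrambled 2 was highest for 13 of the 15 TCA cycle genes. The median SD of the 31 was 0.13 in DOR siRNA cultures and 0.17 in scrambled cultures, beside 0.12 and 0.13 over all genes. For the brightest probe set of Idh3b it was 0.010 in DOR siRNA cultures and 0.15 in scrambled cultures. No test of this pattern was made.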
